A study of Mus musculus with 40 samples.

Results

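Aortic gene expression at 6 h of Angiotensin II (Ang-II) was compared with that at 2 h in the calcineurin (Cn) control mice, Cn-Ctl. The comparison rests on 6 libraries, 3 at each time, out of 22 in the genotype experiment and 40 in the whole series, and it was made for every one of the 14424 protein-coding genes measured. Cn-Ctl mice were males of the genotype CnB1-flox;Myh11-CreERT2-neg: they carried floxed Ppp3r1, the gene for the regulatory subunit CnB1, but no Cre, so that the gene stayed intact. In the paper as a whole, Cn-Ctl also covers mice with Cre and an unfloxed Ppp3r1. The Cn-Ctl mice had all received tamoxifen at 10 to 12 weeks of age, 1 mg per day over 5 days. For the libraries compared, a minipump delivering Ang-II at 1 µg/kg/min followed 6 weeks later, for either 2 or 6 h. A further Cn-Ctl group, shown for reference, had Ang-II for 24 h. Treated Cn-Ctl mice entered the study only where their systolic blood pressure had passed 130 mmHg. The untreated Cn-Ctl mice, shown here as a reference level, had the same genotype and tamoxifen and no Ang-II. SM-Cn-/- mice had the same floxed allele plus tamoxifen-inducible Cre driven by the smooth muscle gene Myh11, and the same tamoxifen and Ang-II, with no selection on blood pressure. That Cre sits on the Y chromosome, which limits the study to males. A gene list was also taken from the other experiment, on wild-type males for which the paper names no tamoxifen. These mice were untreated or had Ang-II at 1 µg/kg/min for 2 h, the treated ones again selected at over 130 mmHg. Each library was made from a pool of 3 saline-perfused aortas freed of adventitia and perivascular tissue, so the spread given below is between pools and not between single mice.

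Ang-II contracts the aorta and signals through its receptor on smooth muscle to calcium, MAP kinases, and Cn, a phosphatase that acts on NFAT factors and whose inhibitor Rcan1 is itself an NFAT target. Stimuli of this kind induce immediate early genes, transcription factors such as Jun, Atf3, and Nr4a3, whose messengers are short-lived. Heat shock genes encode chaperones that fold and clear damaged proteins, and the transcription factor HSF1 drives them from heat shock elements, repeats of the unit GAA in alternating orientation near the gene start.

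Signal is a read count that the authors scaled between libraries, and it is not corrected for gene length, so levels are compared between libraries and not between genes. The libraries at 2 h held 5.91 to 7.45 M reads and those at 6 h 3.40 to 6.61 M. The shallowest, 6 h replicate 3, correlated with the other 6 h libraries at r = 0.884 and 0.890 across genes, whereas those correlated with each other at 0.959. Smooth muscle markers summed to a signal of 34720 to 44286 at 2 h and 39785 to 41682 at 6 h, in keeping with the label of the tissue. Adipose markers summed to 1835 to 1947 at 2 h and 1441 to 5117 at 6 h, with 14 of 14 members detected, endothelial markers to 474 to 738 and 746 to 807, and liver markers to 399 to 1481 and 577 to 3304. None of these adipose, endothelial, and liver markers passed the test in limma, and 3, 3, and 1 of them had an unadjusted p under 0.05. In edgeR 1 adipose marker passed, and in DESeq2 1 of each list did. The share of these tissues in the results below was not tested, and in whole aorta fewer cells of a type and less RNA per cell cannot be told apart.

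Between 2 and 6 h, far more genes fell than rose. Of the 14424 genes, 241 (1.67%) differed at an adjusted p under 0.05 and are called DEGs here. Of these, 197 (1.37% of all genes) were lower at 6 h and 44 (0.305%) were higher, while the median change over all genes was -0.02 on the log2 scale. Over 2-fold there were 151 DEGs (1.05%), 117 of them lower (0.811%) and 34 higher (0.236%), and over 4-fold 12 were lower and 3 higher. The typical gene that fell changed by -1.07, and the typical gene that rose by 1.26. In 2 of the DEGs the libraries of both times overlapped. Libraries of 6 h and 2 h lay fully apart in 2805 genes (19.4%), 1639 of them (11.4%) with 6 h below, so separation alone was common among all genes. Leaving out 2h replicate 1 left 96 DEGs, without 2h replicate 2 there were 106, without 2h replicate 3 there were 152, and without 6h replicate 3 there were 119. Quantile normalization left 105 and a fit on only these 6 libraries 60, whereas DESeq2 on the recovered reads gave 532 (3.69%) and edgeR 188 (1.3%). An unadjusted p under 0.05 was reached by 2163 of the 14424 genes.

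**Figure D1:**
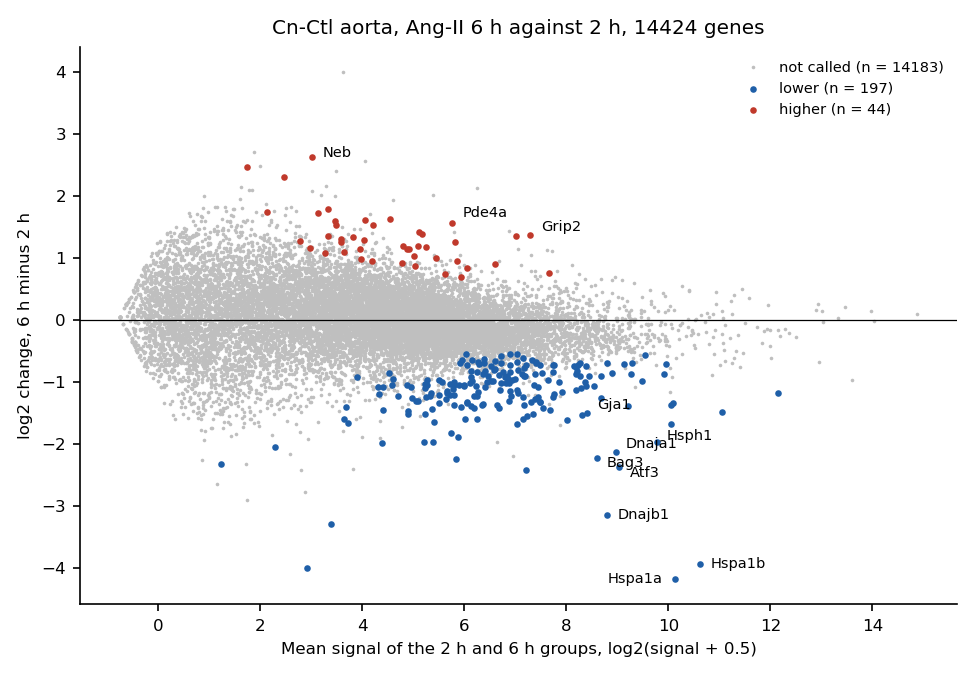
Change of each of the 14424 genes in Cn-Ctl aorta between 2 and 6 h of Ang-II (y axis, log2 of signal plus 0.5) against its level (x axis, log2 of the mean signal of both groups plus 0.5). Each point is a gene, and the DEGs are coloured: 197 lie below the line at 0 and 44 above it, with the Hsp70 genes Hspa1a and Hspa1b near the bottom of the plot.

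Heat shock genes were prominent among the falls. Of the 18 measured members of the heat shock and chaperone list, 10 fell and none rose, with a median log2 change of -0.96, against the 1.37% of all genes that fell and their median of -0.02. In 14 of the 18 all 6 h libraries lay below all 2 h libraries, against 11.4% of all genes. The count was 10 in edgeR and DESeq2 as well and 9 under quantile normalization, without 2h replicate 3, or without 6h replicate 3.

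Hspa1a and Hspa1b encode the stress-inducible Hsp70, the chaperone that binds unfolded protein chains. The signal of Hspa1a was 2260, 2508, and 1608 in the 2 h libraries and 69.6, 111, and 199 in the 6 h libraries, with 56.1 and 101 in the untreated ones. Every 2 h library stood far above every other Cn-Ctl library, and the 6 h values reached down into the untreated range. The fall was 18-fold (log2 change -4.17 ± 0.47 SE, adjusted p = 4.03e-05, limma). Hspa1b gave 3268, 3295, and 2310 at 2 h, 151, 158, and 289 at 6 h, and 74.2 and 90.4 without Ang-II, a fall of 15.3-fold (-3.94 ± 0.42, adjusted p = 1.99e-05). All 3 of its 6 h libraries remained above both untreated ones. The pair are near-identical copies, so reads may have been divided between them, and Gm20481, which fell 9.77-fold, overlaps Hspa1a on the opposite strand, where reads cannot be assigned without strand.

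The regions just upstream of the Hsp70 genes and of Hspd1 are shown because these genes fell together and heat shock elements near the start can be read in them. The 250 bases before the start of each gene, 5′ to 3′ on the gene's strand (RefSeq, build GRCm38.p6), are given with the heat shock element of 2 units, GAANNTTC or TTCNNGAA, in capitals. Hspa1a lies on the minus strand at chr17:34972157-34972406, Hspa1b on the minus strand at chr17:34959239-34959488, and Hspd1 on the minus strand at chr1:55087933-55088182.
Hspa1a: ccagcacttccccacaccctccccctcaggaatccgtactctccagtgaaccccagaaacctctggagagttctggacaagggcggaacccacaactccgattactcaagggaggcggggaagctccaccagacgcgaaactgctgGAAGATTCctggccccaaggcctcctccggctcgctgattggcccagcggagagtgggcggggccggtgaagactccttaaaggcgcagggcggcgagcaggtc
Hspa1b: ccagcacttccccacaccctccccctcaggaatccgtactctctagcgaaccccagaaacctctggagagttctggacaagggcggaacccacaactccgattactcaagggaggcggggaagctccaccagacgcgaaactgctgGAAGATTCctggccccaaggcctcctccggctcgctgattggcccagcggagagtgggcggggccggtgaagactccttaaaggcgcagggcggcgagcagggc
Hspd1: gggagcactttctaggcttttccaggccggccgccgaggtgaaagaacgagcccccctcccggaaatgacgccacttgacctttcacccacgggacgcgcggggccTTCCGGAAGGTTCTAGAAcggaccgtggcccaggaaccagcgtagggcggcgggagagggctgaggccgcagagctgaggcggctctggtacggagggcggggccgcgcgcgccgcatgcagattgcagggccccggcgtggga
The stretches of Hspa1a and Hspa1b held the same base at 247 of 250 positions, and both had a single match to the element.

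Cochaperones of Hsp70 fell with it. Dnajb1, an Hsp40 that delivers substrates to Hsp70, had a signal of 595, 867, and 931 at 2 h and 59.1, 118, and 98.9 at 6 h. Its untreated values were 25.4 and 39.3, below every 6 h library, and its fall was 8.81-fold (-3.14 ± 0.33, adjusted p = 1.99e-05). Dnaja1, another Hsp40, held 818, 808, and 813 at 2 h and 203, 193, and 163 at 6 h, which is 4.37-fold lower with almost no spread between the 2 h libraries (adjusted p = 5.9e-05). Bag3, which links Hsp70 to autophagy of damaged muscle proteins, gave 591, 742, and 570 at 2 h and 117, 118, and 175 at 6 h. The untreated libraries of Bag3 stood at 104 and 97.9, just under the 6 h ones. Bag3 had the smallest adjusted p of the genes named here (4.68-fold, -2.23 ± 0.19, adjusted p = 7.34e-07). Hsph1, the Hsp110 that exchanges nucleotide on Hsp70, gave 1315, 1553, and 1297 at 2 h and 368, 319, and 372 at 6 h, 3.92-fold lower (adjusted p = 0.00258). The groups did not overlap in any of these genes, and Hspa1a, Hspa1b, Dnajb1, Dnaja1, Bag3, and Hsph1 each passed the test without any 1 library.

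Smaller falls were seen in the Hsp40 gene Dnajb4 (log2 change -1.68), the Hsp90 cochaperone gene Chordc1 (-1.30), the mitochondrial chaperonin gene Hspd1 (-1.05), and the small heat shock protein gene Hspb8 (-0.87). Of these, Hspd1 gave 491, 531, and 487 at 2 h and 270, 238, and 220 at 6 h (adjusted p = 0.0202). Chordc1 gave 166, 159, and 176 at 2 h and 72.9, 69.2, and 60.7 at 6 h, with 61.5 and 57.8 in the untreated libraries. Its 2 h libraries stood well above all others, and by 6 h the values lay close to the untreated ones.

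The other 8 members did not pass the test, and several of them were still far above the untreated level at 6 h. Hspa8, the constitutive Hsc70, gave 9539, 11236, and 8490 at 2 h, 6318, 5313, and 6697 at 6 h, and 1321 and 1640 without Ang-II (6 h against 2 h, log2 change -0.67, adjusted p = 0.192). Hspb1, a small heat shock protein that binds actin, gave 2724, 2538, and 1339 at 2 h and 2206, 3010, and 3211 at 6 h, in overlapping groups, and 127 and 142 without Ang-II. Its log2 change from 2 to 6 h was 0.40 (adjusted p = 0.594). The Hsp90 genes Hsp90aa1 and Hsp90ab1 gave changes of -0.54 and -0.28 with all 6 h libraries below 2 h (adjusted p = 0.211 and 0.526). Hspe1, the partner of Hspd1, gave -0.69, the Hsp90 cochaperones Ahsa1 and Stip1 -0.13 and -0.18, and Hsf1, the regulator itself, 0.31.

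**Figure D2:**
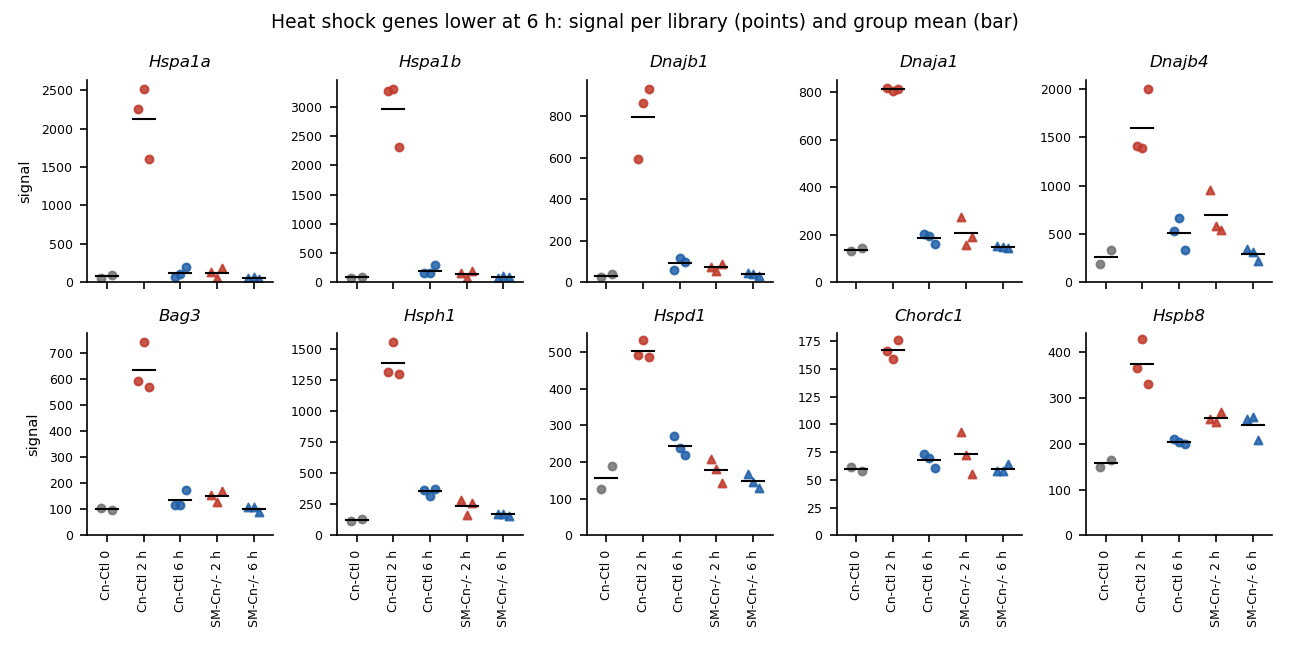
Signal of 10 heat shock genes (y axes, linear scale) in Cn-Ctl aorta without Ang-II and at 2 and 6 h of Ang-II (circles) and in SM-Cn-/- aorta at 2 and 6 h (triangles). Each symbol is a library and each bar a group mean. In Hspa1a the 2 h Cn-Ctl libraries lie between 1608 and 2508 and all other libraries shown at 199 or below.

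Heat shock elements were counted over the 300 bases from 250 before to 50 after each gene start on both strands. A gene with several windows was scored by the window with the most matches. A match to 3 alternating units, GAANNTTCNNGAA or TTCNNGAANNTTC, occurred in 0.603% of 32851 windows and in 0.557% of the tested genes with a window. Of the 10 heat shock genes that fell, 3 held it, with 1 match in Hsph1, 2 in Hspd1, and 3 overlapping ones in Chordc1. For Hsph1 and Chordc1 the match lies at or past the start, and 30 bases are shown with 1 match of each gene in capitals (the first of the 3 of Chordc1, which the others overlap), Hsph1 at chr5:149636287-149636316 on the minus strand and Chordc1 at chr9:18292255-18292284 on the plus strand.
Hsph1: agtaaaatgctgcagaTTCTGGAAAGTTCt
Chordc1: tgcaaccgGAACGTTCGGGAAaattcctga
The same 3-unit matches of Hspd1 also lie in the window of Hspe1, which is read from the opposite strand, and Hspe1 did not pass the test. The 2-unit element, of which each 3-unit match contains overlapping copies, occurred in 15.1% of all windows and in 14.2% of the tested genes with a window. It was found in 9 of the 10 heat shock genes that fell, Dnajb1 being without one. Of the 8 members that were not called, 4 had a window and 2 of those held the 2-unit element. Among the genes that fell outside the list, 29 of 147 with a window held it (19.7%), and among those that rose 5 of 33 (15.2%). Of all genes that fell, 157 had a window. The cyclic AMP response element TGACGTCA was found in 8 of these 157 genes (5.10%) and in 3.33% of the tested genes with a window. The AP-1 site TGANTCA was found in 12 of the 157 (7.64%) and in 6.65%.

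Transcription factors of the early response also fell. In the AP-1 list, 3 of 10 measured members fell and none rose, and the median log2 change was -1.01, against 1.37% of all genes that fell and their median of -0.02. Atf3, a stress-induced AP-1 family factor, gave 604, 960, and 1072 at 2 h and 120, 190, and 200 at 6 h, with 43.9 and 58.3 without Ang-II. It fell 5.14-fold to values between those of the 2 h and the untreated libraries (-2.36 ± 0.28, adjusted p = 6.49e-05). Jun gave 222, 367, and 314 at 2 h and 102, 102, and 118 at 6 h, 2.74-fold lower (adjusted p = 0.000276). Fosl2 gave 395, 417, and 389 at 2 h and 177, 185, and 185 at 6 h, 2.19-fold lower (adjusted p = 0.0275). The spread of Fosl2 was small at both times, but the call did not hold with any 1 of the 6 libraries left out (adjusted p up to 0.106). Fos itself ranged from 99.2 to 428 at 2 h and from 74.1 to 170 at 6 h and did not pass the test (log2 change -0.89, adjusted p = 0.336).

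Of 16 other immediate early genes, 2 fell and none rose, with a median of -0.69, against 1.37% and a median of -0.02 for all genes. Nr4a3, an orphan nuclear receptor, gave 262, 288, and 175 at 2 h and 78.3, 100, and 71.9 at 6 h, 2.85-fold lower (adjusted p = 0.0039). All of its 6 h libraries stood well above the untreated values of 10.9 and 19.6. Ier5, which acts in the heat shock response, gave 97.0, 140, and 102 at 2 h and 26.7, 39.3, and 46.2 at 6 h, 3.03-fold lower (adjusted p = 0.00744, and 0.0606 without 2h replicate 2). Egr1 gave 173, 571, and 388 at 2 h and 308, 405, and 215 at 6 h, in overlapping groups, with a log2 change of -0.17. Klf6 was the only 1 of 11 Kruppel-like factors to fall, against 1.37% of all genes (-0.87, adjusted p = 0.0126, and 0.0629 without 2h replicate 2 and 0.0695 without 6h replicate 1).

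In the list of Cn subunits, Rcan genes, and NFAT family members, the inhibitor and target Rcan1 fell and the subunits did not pass the test. Rcan1 gave 368, 404, and 380 at 2 h and 85, 128, and 179 at 6 h, with 27.6 and 45.4 in the untreated libraries. The 2 h values were nearly equal, all 6 h values lay below them, and all of these lay above the untreated ones. The fall was 3.07-fold (-1.62 ± 0.33, adjusted p = 0.00998), with an adjusted p of 0.0525 without 2h replicate 2 and 0.0616 without 6h replicate 1. Nfat5, the NFAT factor of the response to osmotic stress, gave 395, 369, and 300 at 2 h and 214, 245, and 180 at 6 h (-0.73, adjusted p = 0.00962). Its call did not hold without 2h replicate 1 (0.0746), 2h replicate 2 (0.0563), or 6h replicate 3 (0.0636). Of 12 measured members of the list, these 2 fell and none rose, and the median was -0.23, against 1.37% and -0.02 for all genes. Under quantile normalization none of the list passed. Ppp3r1, the floxed gene, gave 84.8, 86.4, and 134 at 2 h and 98.2, 116, and 48.1 at 6 h, in overlapping groups (-0.28, adjusted p = 0.749). The catalytic subunit genes Ppp3ca, Ppp3cb, and Ppp3cc gave changes of -0.03, -0.11, and -0.91 (adjusted p = 0.95, 0.864, and 0.185).

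Genes that the study followed in the aortic wall gave mixed results. Gja1, which encodes the gap junction protein connexin 43, gave 396, 449, and 652 at 2 h and 206, 165, and 149 at 6 h, 2.84-fold lower (-1.50 ± 0.21, adjusted p = 0.000422). At 6 h its libraries lay close to the untreated values of 144 and 154. Tnfaip6, a hyaluronan-binding protein of inflamed tissue, gave 103, 92.6, and 85.2 at 2 h and 15, 18.3, and 26.5 at 6 h, with 2.55 and 1.00 without Ang-II. It fell 4.71-fold (adjusted p = 0.012, and 0.0686, 0.0525, and 0.0553 without 2h replicate 1, 2h replicate 2, and 6h replicate 1). Ptgs2, cyclooxygenase 2, gave 139, 255, and 726 at 2 h and 85.9, 128, and 68.2 at 6 h. The groups of Ptgs2 did not overlap, but its 2 h libraries spread widely and the change of -1.70 did not pass the test (adjusted p = 0.0809). Ier3 gave -0.84 (adjusted p = 0.131), and the Ang-II receptor gene Agtr1a, at 1.58 to 5.88 in all 6 libraries, gave -0.33.

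Inhibitors of MAP kinase signalling, growth factors, and proteases were among the other genes that fell. Against the 1.37% of all genes that fell, 3 of 17 MAP kinase phosphatases and Sprouty genes did so: Dusp8 (log2 change -1.31), Dusp16 (-1.20), and Spry2 (-0.96). Dusp8 gave 220, 226, and 231 at 2 h and 82.8, 77.0, and 116 at 6 h (adjusted p = 0.00114). Beside the same 1.37%, 2 of 20 growth factor genes fell, Bdnf (-1.41) and Tgfb2 (-1.07), and 2 of 22 genes for matrix proteases and their inhibitors, Adamts1 (-1.34) and Adamts9 (-1.32). Adamts1, a protease that cuts versican, gave 1214, 1423, and 2057 at 2 h and 615, 808, and 439 at 6 h, and 186 and 330 without Ang-II. Its 6 h libraries thus lay between the other groups. Abra, which activates SRF through actin, gave 179, 281, and 281 at 2 h and 53, 31.0, and 55.3 at 6 h, 5.33-fold lower (adjusted p = 0.00203). A730049H05Rik, 3.95-fold lower (adjusted p = 0.0452, and up to 0.15 in the 5 of 6 fits without 1 library that lost the call), overlaps Adamts9 on the opposite strand. Abra, Adamts1, Adamts9, Dusp8, Dusp16, and Tgfb2 passed the test without any 1 library, whereas Bdnf gave an adjusted p of up to 0.137 and Spry2 of up to 0.106.

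In the gene groups of sterol synthesis, TGF-beta signalling, growth arrest, and matrix some members fell, and these calls leaned on single libraries. Of 22 cholesterol genes 3 fell, against 1.37% of all genes. Among these, Cyp51, the lanosterol demethylase, fell by a log2 change of -1.64 and Idi1, the isomerase of isoprenoid synthesis, by -1.51. Idi1 gave 60.1, 37.3, and 68.7 at 2 h and 22.4, 14.4, and 19.6 at 6 h, with no overlap between the groups. The adjusted p of Cyp51 was 0.00987, and 0.0532 without 2h replicate 3 and 0.0704 without 6h replicate 3. That of Idi1 was 0.0089, and 0.0588 without 2h replicate 1 and 0.055 without 2h replicate 3. Of 23 TGF-beta and BMP genes 3 fell, against 1.37% of all genes: the repressor Skil (-1.13), Smad1 (-1.06), and the receptor Tgfbr1 (-0.91), and 1 of the list fell without 2h replicate 3 or in edgeR, and none without 6h replicate 3 or under quantile normalization. Of 19 p53 and growth arrest genes 2 fell (1.37% of all genes), the cell cycle inhibitor Cdkn1a (-1.32) and the antiproliferative Btg1 (-0.87). Against 1.37% of all genes, 1 of 18 NF-kB genes fell, the cofactor Nfkbiz (-1.22), and 1 of 19 NRF2 genes, Nfe2l2 (-0.95). Of 22 genes of collagens and elastic fibre 1 fell, the fibrillin gene Fbn1 (-1.09). In edgeR the p53 list kept 2 members lower and the NF-kB list 1, whereas the NRF2 and collagen lists kept none. Under quantile normalization no member of the p53, NF-kB, NRF2, and collagen lists passed. Fbn1 gave 350, 362, and 532 at 2 h and 260, 248, and 107 at 6 h, with its lowest value in 6h replicate 3. Each of these last 5 calls was lost without at least 1 library, with an adjusted p of up to 0.224 (Cdkn1a without 2h replicate 1), 0.139 (Btg1 without 2h replicate 3), 0.121 (Nfkbiz without 2h replicate 2), 0.21 (Nfe2l2 without 6h replicate 3), and 0.164 (Fbn1 without 6h replicate 3).

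A further set of genes fell from a 2 h level that was near the untreated one. Unc5c, a netrin receptor, gave 70.9, 52.1, and 73.1 at 2 h, 22.8, 21.3, and 8.62 at 6 h, and 78.6 and 69.3 without Ang-II. Its fall of 3.91-fold (-1.97 ± 0.34, adjusted p = 0.00287) took it below the untreated libraries. Ncald, a neuronal calcium sensor, gave 65.7, 46.7, and 56.9 at 2 h and 15.4, 27.1, and 6.43 at 6 h, 3.90-fold lower (adjusted p = 0.00359), with 57.9 and 49.4 untreated. Cacna1c, the pore of the L-type calcium channel of smooth muscle, gave 89.8, 90.2, and 92.7 at 2 h and 38.3, 54.3, and 43.7 at 6 h, 2.01-fold lower (adjusted p = 0.003), with 106 and 102 untreated. All 3 genes passed the test without any 1 library. They were lower at 6 h in SM-Cn-/- aorta as well, by log2 changes of -2.32, -2.07, and -1.62 (adjusted p = 0.0036, 0.0074, and 7.5e-05). Gm12184 had no read in 2 of the 3 libraries at 6 h, and 7.88, 14.3, and 18.9 at 2 h (adjusted p = 0.027). Its call was lost in 5 of the 6 fits without 1 library, with an adjusted p of up to 0.101. In SM-Cn-/- aorta Gm12184 gave 10.7, 0.0675, and 16.6 at 2 h and 6.82, 5.95, and 2.95 at 6 h. Its level thus also differed widely between libraries of the same time.

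Myocd, the coactivator of SRF in smooth muscle, was the only 1 of 125 marker genes of 11 cell types that passed the test. Of all genes 1.67% did. It gave 100, 104, and 85.8 at 2 h, 29.0, 41.3, and 26.2 at 6 h, and 15.7 and 29.8 untreated (3.03-fold lower, adjusted p = 0.0368). The call did not hold in 5 of the 6 fits that left out a library (adjusted p up to 0.133 without 6h replicate 3). The other 13 smooth muscle markers did not pass the test, and the list had a median of 0.08.

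**Figure D3:**
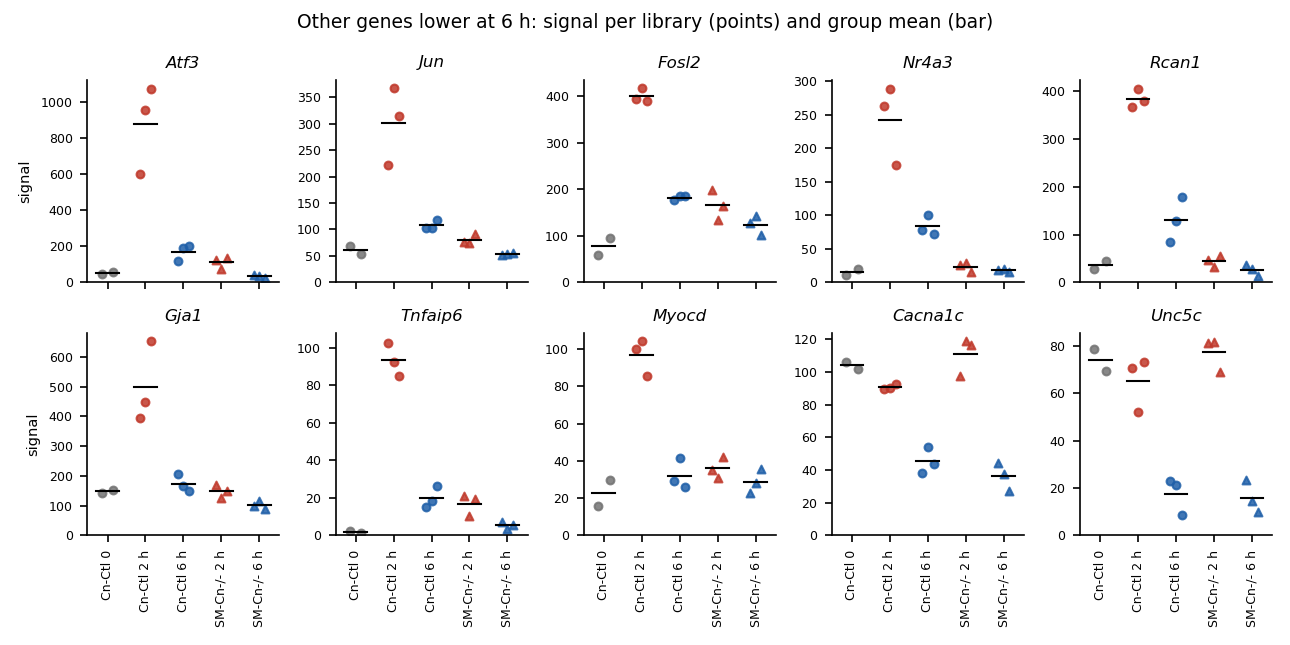
Signal of 10 genes outside the heat shock list (y axes, linear scale) in Cn-Ctl aorta without Ang-II and at 2 and 6 h (circles) and in SM-Cn-/- aorta at 2 and 6 h (triangles), each symbol a library and each bar a group mean. Rcan1 lies at 368 to 404 at 2 h and 85 to 179 at 6 h in Cn-Ctl, and Cacna1c, near 90 at 2 h, falls to between 38.3 and 54.3.

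The 44 genes that rose were spread over many functions, and only 2 belonged to a pathway list. Neb, a giant actin-binding protein of skeletal muscle, gave 1.69, 1.81, and 1.30 at 2 h, 18.7, 6.63, and 15.5 at 6 h, and 2.26 and 2.83 untreated. It rose 6.22-fold (2.64 ± 0.50, adjusted p = 0.00601), and the summed signal of striated muscle markers was 24.5 to 62.7 at 2 h and 33.1 to 230 at 6 h. The part of those markers in the rise of Neb was not tested. Pde4a, a phosphodiesterase that breaks down cyclic AMP, gave 22.2, 28.9, and 28.7 at 2 h, 65.8, 74.7, and 100 at 6 h, and 49.9 and 73.6 untreated. It was thus lowest at 2 h, and rose 2.95-fold (1.56 ± 0.25, adjusted p = 0.00145). Grip2, a scaffold protein, gave 118, 85, and 62.5 at 2 h and 173, 234, and 267 at 6 h (2.57-fold higher, adjusted p = 0.00558). Tmem94 gave 11.5, 9.69, and 11.3 at 2 h and 30.6, 31.3, and 42.2 at 6 h (3.09-fold higher, adjusted p = 0.00304). The groups did not overlap in these genes, and Neb, Pde4a, Grip2, and Tmem94 were the only 4 of the 15 genes with the largest rises that passed the test without any 1 library.

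The other 11 of these 15 had log2 changes between 1.39 and 2.47. Among them, Gja4, which encodes the endothelial connexin 37, gave 7.28, 9.85, and 4.98 at 2 h and 18.9, 16.3, and 38.7 at 6 h (3.07-fold higher, adjusted p = 0.0372, and 0.195 without 6h replicate 3). The summed endothelial markers lay at 474 to 738 at 2 h and 746 to 807 at 6 h, and their part in this rise was not tested. Gpr4, a proton-sensing receptor, gave 1.30, 0.709, and 1.76 at 2 h and 6.43, 5.23, and 14.6 at 6 h (adjusted p = 0.0385, and 0.195 without 6h replicate 3). Adam19, a metalloprotease, gave 12.7, 16.5, and 27.3 at 2 h and 45.2, 42.1, and 61.3 at 6 h, with untreated values of 16.5 and 17.6 in the range of the 2 h libraries (2.68-fold higher, adjusted p = 0.0149, and 0.109, 0.0734, and 0.0833 without 2h replicate 1, 2h replicate 2, and 6h replicate 3). Pik3c2b, a phosphoinositide kinase, gave 11.7, 7.01, and 8.96 at 2 h and 28.4, 26.1, and 26.5 at 6 h (2.89-fold higher, adjusted p = 0.00585, and 0.0513 without 2h replicate 2). Tnr, Bahcc1, Zfhx2, Thap3, Smim5, Ccdc69, and Fbxl22 had a highest adjusted p between 0.0739 and 0.222 when 1 library was left out.

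The 2 list members that rose were Per3 and Rgs3. Per3, a clock gene, gave 22.8, 34.0, and 43.4 at 2 h, 85.8, 76.4, and 72.3 at 6 h, and 205 and 198 untreated. Its 2 h libraries were the lowest and the 6 h ones still far below the untreated (log2 change 1.26, adjusted p = 0.0434, and up to 0.218 without 2h replicate 1). Rgs3, which shuts off G proteins of receptors such as that of Ang-II, gave 47.0, 42.9, and 50.3 at 2 h and 88.2, 76.4, and 88.2 at 6 h (0.84, adjusted p = 0.00987, and 0.065 without 2h replicate 2).

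**Figure D4:**
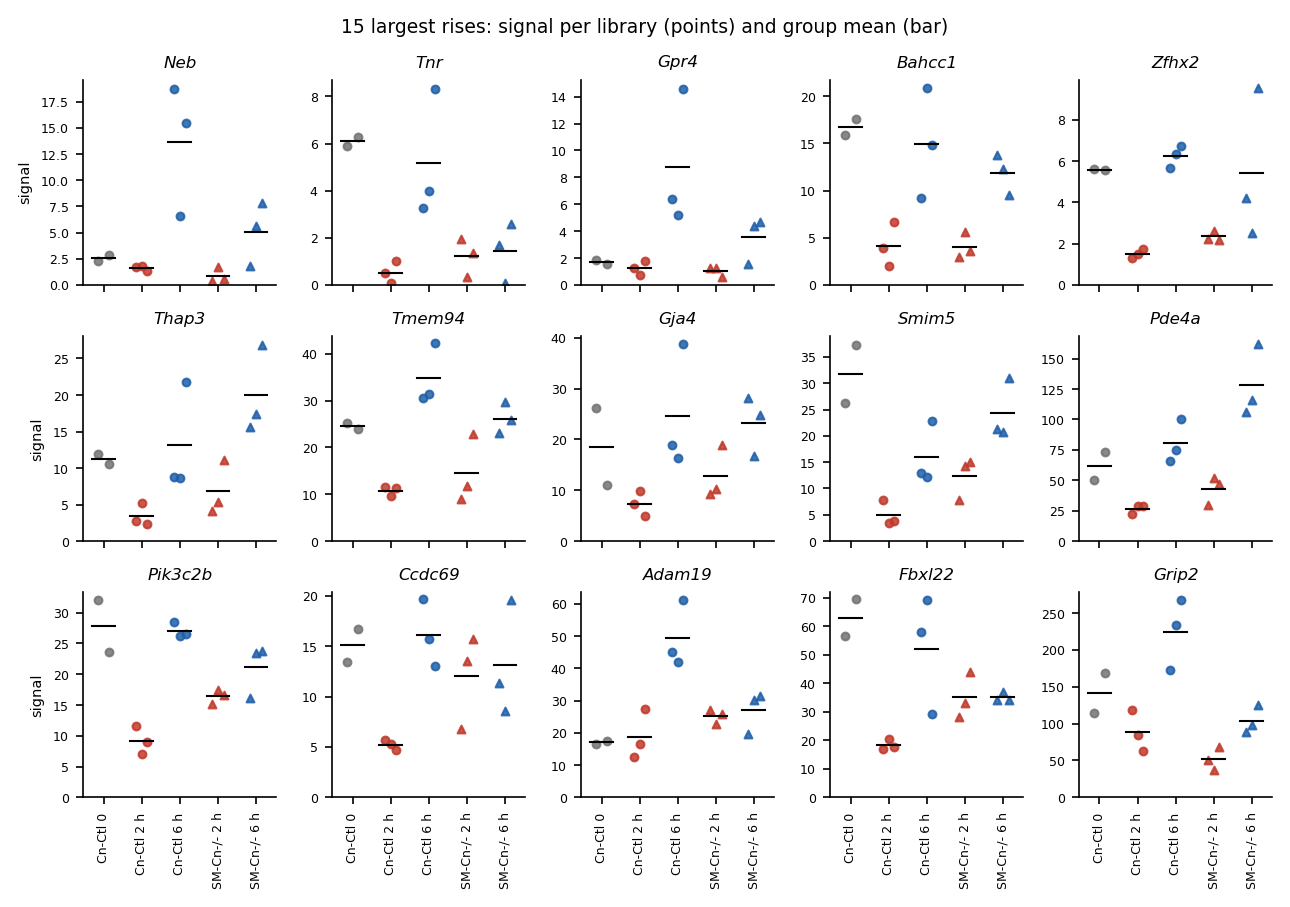
Signal of the 15 genes with the largest rises (y axes, linear scale) in Cn-Ctl aorta without Ang-II and at 2 and 6 h (circles) and in SM-Cn-/- aorta at 2 and 6 h (triangles), each symbol a library and each bar a group mean. In Pde4a the 2 h Cn-Ctl libraries, at 22.2 to 28.9, lie below both the untreated libraries and those of 6 h at 65.8 to 100.

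Genes that fell had a lower GC content than those that rose, with a median of 46.8% against 55.9% and 49.9% over the genes tested. Each library's deviation from the mean of all 22 libraries of the genotype experiment was correlated with GC content across genes. The r was 0.34 in 6h replicate 3 and -0.40 in 2h replicate 3. Removing each library's GC trend gave 291 DEGs and left 10 members of the heat shock list lower.

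Over all 33 lists of pathways, 602 genes were measured, of which 39 fell and 2 rose, against 1.37% and 0.305% of all genes. In 13 lists, with 272 measured members counted once per list, no member passed the test in limma. An unadjusted p under 0.05 was found for 48 of the 272, a share near that over all genes (2163 of 14424). edgeR called none of these 272 and DESeq2 12, beside its 3.69% of all genes. Among these lists were the unfolded protein response (median log2 change -0.40), IL-6 and STAT3 signalling (-0.36), chemokines and cytokines (-0.34), actin and focal adhesion genes (-0.01), oxidative phosphorylation (-0.03), and glycolysis (-0.02). For example, Hsp90b1, the Hsp90 of the endoplasmic reticulum, gave 653, 622, and 1015 at 2 h and 568, 551, and 366 at 6 h (adjusted p = 0.157), and Ctgf, a matricellular target of Ang-II, 15346, 16475, and 17504 at 2 h and 8433, 8743, and 7965 at 6 h (log2 change -0.97, adjusted p = 0.188). The 6 h libraries of Ctgf lay below those of 2 h and far above the untreated values of 959 and 1749.

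Genes chosen in other mice were followed over the same interval. In the experiment with wild-type mice, 376 genes rose over 2-fold in the first 2 h, and the Cn-Ctl table holds 374 of these. From 2 to 6 h their median log2 change was -0.70, with 93 lower and none higher (limma, with 1 at an unadjusted p under 0.05 in that direction, and none in edgeR or DESeq2), against 1.37% of all genes lower. The 93 became 51 under quantile normalization, 70 without 6h replicate 3, and 79 without 2h replicate 3. Each 6 h library on its own lay below the 2 h mean, with medians of -0.79, -0.70, and -0.60. The 108 genes lowered over 2-fold there had a median of 0.56, with 12 higher and none lower (limma, with 1 at an unadjusted p under 0.05 in that direction, and none in edgeR or DESeq2), against 0.305% of all genes higher. Without 6h replicate 3 the 12 became 6, without 2h replicate 3 they became 5, and under quantile normalization 4.

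Set beside the untreated level, genes that fell had mostly stood above it at 2 h. The 197 genes that fell had a median log2 difference from untreated of 1.15 at 2 h and 0.13 at 6 h, and the 44 that rose of -0.98 and 0.18. These differences share their libraries with the comparison of 6 h and 2 h and add no test of it. At 24 h, in 2 libraries, Bag3 stood at 104 and 113, Hspa1a at 81.4 and 131, and Cacna1c at 73.6 and 66.4, while Rcan1 was at 75.3 and 157. Nr4a3 was lower again at 24 h, 28.9 and 26.8, than at 6 h (log2 change from 6 to 24 h -1.55, adjusted p = 0.012).

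The same interval was compared in SM-Cn-/- aorta, where smooth muscle lacks Cn. There 203 genes (1.41%) differed between 6 and 2 h, of which 98 (0.679%) fell and 105 (0.728%) rose. Of the 197 genes that fell in Cn-Ctl, 26 also passed as lower in SM-Cn-/-, and of the 44 that rose 7 passed as higher. Since these genes were chosen on the change in Cn-Ctl, their smaller median in SM-Cn-/- (-0.45, and 0.65 for those that rose) is a description. The test of the difference between genotypes, the interaction, was passed by 1 gene (0.00693%), Bag3, and 934 genes (6.48%) had an unadjusted p under 0.05. In SM-Cn-/- Bag3 gave 154, 128, and 170 at 2 h and 109, 109, and 88.7 at 6 h. The 2 h libraries of SM-Cn-/- were thus far below the 570 to 742 of Cn-Ctl, and the 6 h ones below the 117 to 175. The change was -0.56 in SM-Cn-/- (adjusted p = 0.11) and larger by -1.67 ± 0.26 in Cn-Ctl (adjusted p = 0.0349). This call was lost in edgeR (adjusted p = 0.0664), under quantile normalization (0.0886), with limma without a trend (0.206), and with only the 12 libraries compared (0.087). In 9 of the 12 fits that left out a library of either genotype its adjusted p was above 0.05, up to 0.243 without Cn-Ctl 2h replicate 2. For Hspa1b the difference was -3.42 (adjusted p = 0.0522) and for Hspa1a -3.02 (adjusted p = 0.26). SM-Cn-/- libraries of Hspa1a lay at 61.8 to 185 at 2 h and 41.1 to 66.0 at 6 h. The median of the heat shock list was -0.20 in SM-Cn-/-, where Hspb1 rose (1.45, adjusted p = 0.027) and no member fell. In the fit reported here no heat shock gene other than Bag3 passed the interaction test, and 13 of the 18 had an unadjusted p under 0.05. Other settings called more of them. Hspa1b passed in limma with a pseudocount of 2, with only the libraries compared, with a replicate block, and without Cn-Ctl 6h replicate 3, and Dnaja1 with the replicate block. DESeq2 called Hspa1b, Dnajb1, Dnaja1, and Hspb8 besides Bag3 (adjusted p = 0.00104, 0.00154, 0.00184, and 0.00346), whereas edgeR and quantile normalization called none.

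**Figure D5:**
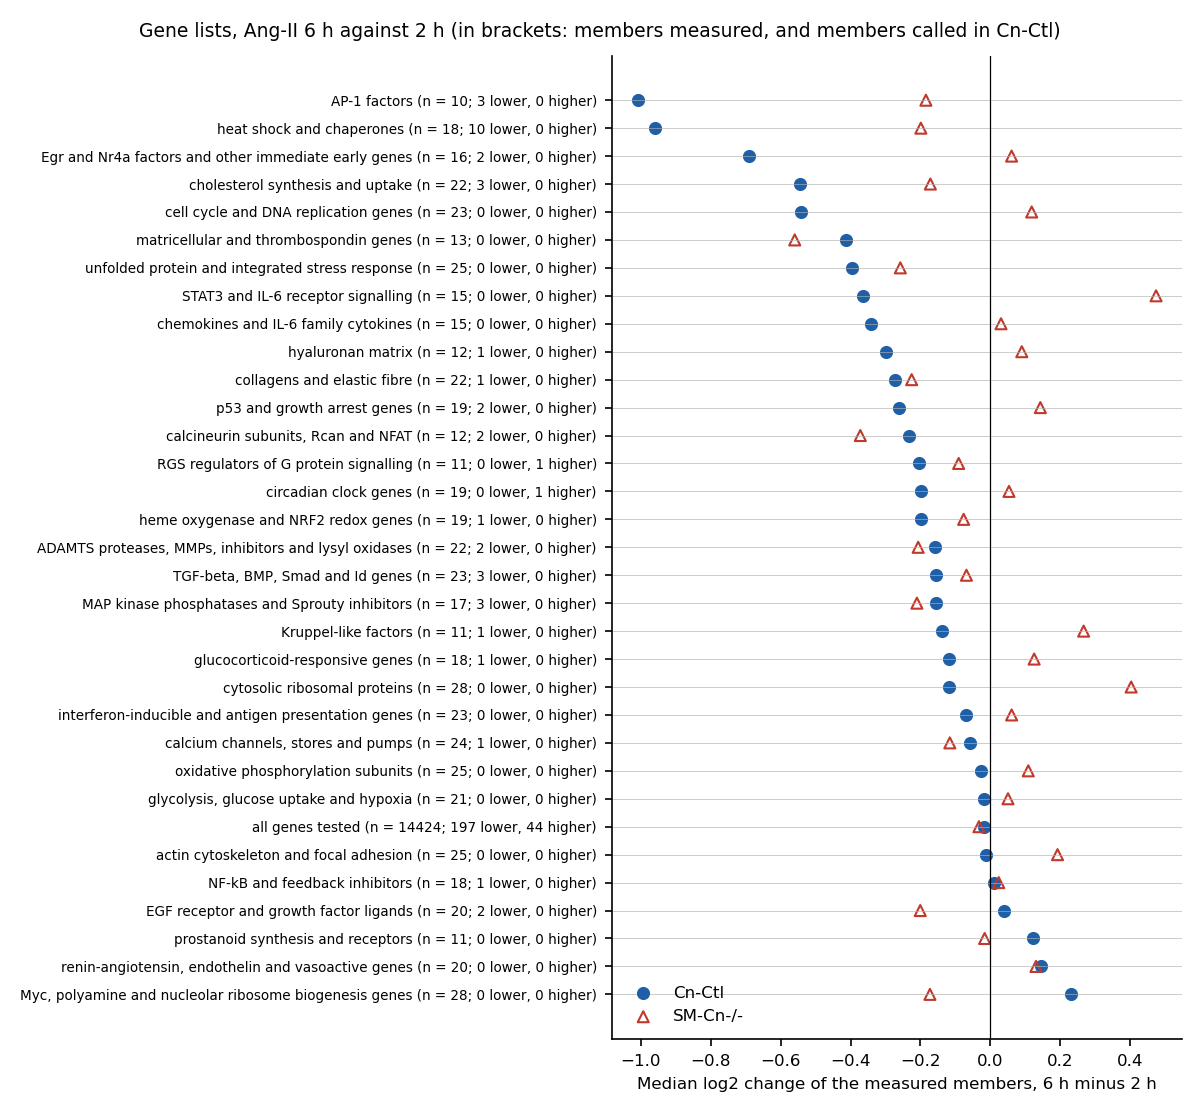
Median log2 change between 2 and 6 h of Ang-II (x axis) of the measured members of the pathway gene lists drawn (rows) and of all genes tested, in Cn-Ctl (circles) and SM-Cn-/- aorta (triangles), with the members measured and called in Cn-Ctl in brackets. Not all of the 33 lists are drawn. The AP-1 and heat shock lists lie farthest to the left in Cn-Ctl, at -1.01 and -0.96, and at -0.18 and -0.20 in SM-Cn-/-.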

How the data were processed

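Oligo-dT libraries of pooled aortic RNA were sequenced on a Genome Analyzer IIx. Per the submitters' processing notes, the tools were Bowtie 0.12.7 and RSEM 1.16, with build GRCm38. The values are signal as deposited by the authors, who had added 0.5 to each gene's reads and scaled the libraries to one another. No source names this unit: it follows from the values, because taking each library's lowest value as 0.5 reads turned 100% of its values into whole reads (within 0.01). Counts recovered in this way served the alternatives in edgeR 4.0.16 and DESeq2 1.42.0.

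Genes were matched by identifier to GENCODE M21, and 14424 protein-coding genes were kept. A filter of signal of at least 1 in at least 2 libraries removed none. Values of log2(signal + 0.5) of all 22 libraries of the genotype experiment, in 8 groups, entered 1 model in limma (version 3.58.1, R 4.3.3) with a variance trend on intensity, and p-values were adjusted by Benjamini-Hochberg over the 14424 genes. The paper names no test for its DEGs. All adjusted p-values in the text are from limma unless another tool is named, errors are standard errors from that fit, and fold changes are on the log2(signal + 0.5) scale, which understates those of low genes. The interaction compared the change from 2 to 6 h between genotypes. The list from wild-type mice came from the same fit on the 18 libraries of the other experiment (adjusted p under 0.05 and over 2-fold). The groups came from the sample labels. Tests cover the spread between pools of 3 aortas.

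On simulated reads for Cn-Ctl 6 h against 2 h with 200 of 14424 genes changed, the fit found 31.6% of 98 genes changed 2-fold and 84.3% of 102 changed 4-fold, with 6 false calls, 0 wrong directions, and 0 calls in reads simulated without a change. So a gene that does not pass may still have changed 2-fold. The changed genes all had a mean signal of at least 5, and the reads of each gene were drawn independently. Low genes and deviations shared by many genes of a library were thus not covered.

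Named were the 15 genes with the largest rises and the 15 with the largest falls among DEGs with a mean signal of at least 5 in either group and no overlap of libraries, up to 4 DEGs per list or, where there were none, the 2 members of the highest signal, genes the study follows, and genes that passed the interaction test. Other heat shock list members, other AP-1 and immediate early genes, and the 24 h values were added after their values were seen. The comparison, gene lists, and rules were chosen with earlier results of these data known. The results leave out 2 genes named by the rule. Promoter sequences are from RefSeq (GRCm38.p6), with windows for 11124 of the 14424 genes. Figures were drawn with matplotlib 3.10.9 in Python 3.11.15.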

Additional observations from a re-analysis of the deposited data

Results flagged for a closer look

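Bag3 was picked out by the test of the difference between genotypes, in which its log2 change from 2 to 6 h in Cn-Ctl differed from that in SM-Cn-/- by -1.67 (adjusted p = 0.0349, limma). All 3 libraries at 6 h lay below all 3 at 2 h in both genotypes. With DESeq2 13 genes passed this test, every one with a more negative change in Cn-Ctl: Hspa1b, Dnajb1, Dnaja1, Dnaja4, Hspb8, Bag3, Ahsa2, Ubb, Sat1, Swt1, Fam46a, Mknk2, and Rbm8a.

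Genes of other biotypes were left out of the report, and 8 of 2978 of them passed the same test, 3 higher and 5 lower at 6 h. The pseudogene Gm15542, which overlaps Psmd13 on the same strand, gave a log2 change of -2.03, with a signal of 202 to 275 at 2 h and 55.2 to 57.5 at 6 h. Gm10501, antisense to the Hsp70 family gene Hspa1l, gave -1.97, and the long noncoding RNA D830026I12Rik -1.80. Gm42991, on the same strand as Auts2, gave -1.67 and Gm830 -1.19. AI480526 gave 1.14, Gm42639, on the same strand as Pcdh7, 1.31, and the pseudogene Dnajc19-ps 2.66, from 0.0997 to 0.236 at 2 h to 2.14 to 9.56 at 6 h. For those that overlap or copy another gene, reads of both cannot be told apart.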

How the results depend on the processing

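The count of 241 DEGs (151 over 2-fold) became 105 (71) under quantile normalization, 133 with limma without a trend, 60 (57) with only the 6 libraries compared, 95 (82) with only the Cn-Ctl libraries, and 532 (229) in DESeq2. With 1 library left out it ranged from 96 to 203 (77 to 157 over 2-fold). The smaller fits also had fewer samples, and the cause of these differences was not tested. Other scalings, pseudocounts, filters, edgeR, and removal of the GC trend, which was chosen after seeing the data, kept it within 1.5 times. The interaction count of 1 became 3 with a pseudocount of 2, 0 under quantile normalization and in edgeR, 13 in DESeq2, and 0 to 2 without 1 library. With limma without a trend the gene that passed was Gm20481, and with only the libraries compared it was Hspa1b. The median of the genes raised in wild-type mice, -0.70, was -0.58 under quantile normalization and -0.78 to -0.61 without 1 library. Libraries were not paired by replicate number, and deviations of same-numbered libraries from their group means correlated at -0.30, -0.16, and -0.51. Deviations within a group are tied to one another and carry library-wide trends such as that with GC content. The correlations therefore cannot show whether same-numbered libraries shared a batch. A replicate block gave 376 DEGs and an interaction count of 3. Of 61 named DEGs, 24 passed without any 1 library and 18 under all 21 alternatives. None of the 61 changed direction. At 3.40 M reads, 6h replicate 3 limits the precision of low genes.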
